A study of Homo sapiens with 6 samples.

Results

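Interferon-stimulated genes are described here in HaCaT cells, an immortalised human keratinocyte line. A list of 43 such genes was looked up by symbol among the 21961 symbols of the deposited count table. All 43 were found, and all 43 passed the filter on low counts that left 14617 genes for testing. The libraries form 2 groups of 3, called Nvs and mod after their titles. The design text names 2 conditions, UVB-irradiated HaCaT cells given vesicles from beet (Beta vulgaris), which it abbreviates BVNV, and UVB-irradiated HaCaT cells without them. The sample labels differ from that text, since the Nvs libraries carry the treatment label control and the mod libraries the label UV-induced. The values were not used to settle this, and every comparison is stated as Nvs against mod. Neither a UVB dose, a time after irradiation, nor an unirradiated group is given in the sources used here, so no response to UVB itself can be read from these libraries.

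Cells that sense foreign or misplaced nucleic acid secrete type I and type III interferons. These bind surface receptors, and the kinases JAK1 and TYK2 then phosphorylate STAT proteins. With IRF9 these form the ISGF3 complex, which binds interferon-stimulated response elements in promoters and induces genes of antiviral defence. Keratinocytes express many of these genes at a basal level, and in skin they are studied in lupus, in psoriasis and after ultraviolet light.

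Total counts ranged from 41120058 to 44080808 in the Nvs libraries and from 45637046 to 51369628 in the mod libraries. Transcripts of the mitochondrial genome took 52.6% ± 0.751 of all counts in Nvs and 30.5% ± 0.817 in mod (SD, n = 3 each). A fit that left these transcripts out is given near the end. Any other part of this difference in the fold changes below was not tested. Levels below are CPM, counts brought to a common library size by TMM scaling, which centres the typical gene near a log2 fold change of 0. When libraries were scaled by their totals alone, the median of all tested genes moved from -0.01 to -0.77 on the log2 scale, so a rise or fall below is relative to the typical gene. Of 12 keratinocyte markers, 12 averaged at least 1 CPM. Their sum was 26678 to 28965 CPM in Nvs and 21333 to 22928 CPM in mod. The higher sum in Nvs came from KRT14 and SFN. KRT14 averaged 12543 ± 711 CPM in Nvs and 8114 ± 456 CPM in mod. SFN averaged 4482 ± 320 CPM in Nvs and 2027 ± 119 CPM in mod. TP63 also averaged higher in Nvs, by little, and the remaining keratinocyte markers all averaged lower in Nvs. Markers of leukocytes (CD14), of plasmacytoid dendritic cells (TCF4), of melanocytes (PMEL and MITF), of fibroblasts and of endothelium reached 1 CPM for 1 of 6, 1 of 2, 2 of 4, 0 of 5 and 0 of 3 genes with values here. The summed level of the plasmacytoid list was 2.55 to 4.60 CPM in Nvs and 5.27 to 6.41 CPM in mod, and its part in the results was not tested. That difference came from TCF4 (3.15 ± 0.960 CPM in Nvs and 5.50 ± 0.333 CPM in mod), since IL3RA, the other measured gene, averaged 0.718 ± 0.505 CPM in Nvs and 0.419 ± 0.328 CPM in mod. Among the leukocyte genes, LYZ averaged 0 CPM in Nvs and 0.0051 CPM in mod.

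Promoter sequences of RefSeq on GRCh38.p14, running from 250 bases before to 50 after a gene's start, were matched by symbol to 34 of the 43 genes. The core of the interferon-stimulated response element was searched on both strands as GAAA followed by any 2 bases and GAAA again, and overlapping matches were kept. It was present in 22 of these 34 genes, 64.7%, and in 4.38% of the 27305 genes in the promoter table. By direction of change it was present in 3 of 6 genes called higher in Nvs, 12 of 15 called lower and 7 of 13 not called. The 6 include IFI27, with a match, and IRF9, without one. Their counts varied within a group, and no direction is read from them below. The gamma-activated site TTCNNNGAA, which reads the same on both strands, was present in 9 of the 34 genes and in 9.38% of all genes. A match is a description of the letters and does not show that a factor was bound. The stretches below, which end at the base before the start, are shown because they belong to genes of all 3 outcomes, with matches to the response element core in capitals. ISG15 (chr1:1013317-1013496, plus strand) and ISG20 (chr15:88638836-88639015, plus strand) were higher in Nvs, IFI44L (chr1:78620268-78620447, plus strand) and DDX60 (chr4:168318753-168318932, minus strand) were lower, and IFIT1 (chr10:89392443-89392622, plus strand) was not called. The PARP9 stretch (chr3:122564301-122564345, minus strand) runs from a PARP9 start at 122564300 to just past the DTX3L start at 122564338. From these starts the 2 genes are transcribed away from each other, and the 1 match spans the DTX3L start, beginning 6 bases before it. Another PARP9 start, at 122564784, had no match to the response element core and is not shown.
ISG15: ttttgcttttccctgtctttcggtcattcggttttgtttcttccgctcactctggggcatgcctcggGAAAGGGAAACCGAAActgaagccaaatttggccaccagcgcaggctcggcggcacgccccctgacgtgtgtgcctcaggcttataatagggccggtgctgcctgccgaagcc
ISG20: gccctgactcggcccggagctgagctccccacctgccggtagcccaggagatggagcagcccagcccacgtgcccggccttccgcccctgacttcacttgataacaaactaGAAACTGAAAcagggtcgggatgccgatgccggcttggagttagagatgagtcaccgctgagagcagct
IFI44L: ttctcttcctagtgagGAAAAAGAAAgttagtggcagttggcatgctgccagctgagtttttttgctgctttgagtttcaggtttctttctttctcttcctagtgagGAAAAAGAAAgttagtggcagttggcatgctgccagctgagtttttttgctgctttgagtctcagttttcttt
DDX60: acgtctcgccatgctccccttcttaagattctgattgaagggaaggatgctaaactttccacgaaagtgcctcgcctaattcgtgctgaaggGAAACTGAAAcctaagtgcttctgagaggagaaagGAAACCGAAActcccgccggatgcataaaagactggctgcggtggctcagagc
IFIT1: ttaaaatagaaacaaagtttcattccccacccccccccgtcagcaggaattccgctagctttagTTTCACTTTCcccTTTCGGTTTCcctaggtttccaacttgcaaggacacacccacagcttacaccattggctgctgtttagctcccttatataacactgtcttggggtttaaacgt
PARP9: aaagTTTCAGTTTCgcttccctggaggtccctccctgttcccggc
In ISG15 the matches overlap and begin 113 and 107 bases before the start. DDX60 has separate matches at 88 and 53 bases and IFIT1 at 116 and 103 bases, where the IFIT1 letters are on the other strand. In IFI44L the same 10 letters occur at 164 and at 73 bases before the start, within a longer repeated stretch. ISG20 has a single match at 69 bases and PARP9 at 41 bases. For 2 of these genes the start used lies inside the genomic span and not at its end. It is 88639016 for ISG20, which spans 88635632 to 88656483. For DDX60 it is 168318752, within 168216294 to 168325979.

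More of the 43 genes were lower than higher in Nvs, but the most abundant of those that rose were among the most abundant of all. edgeR's quasi-likelihood test with Benjamini-Hochberg adjustment over all genes called 19 of 43 lower, 44.2%, where 20.5% of all tested genes were called lower. It called 8 higher, 18.6%, where 22.8% of all tested genes were called higher, and 16 were not called. DESeq2 called 20 lower (21.6% of all tested genes) and 8 higher (23.7%). By library totals 36 were lower (68% of all tested genes) and 4 higher (4.03%). The median log2 fold change of the 43 genes was -0.27, and that of all tested genes was -0.01. In 22 genes every Nvs library lay below every mod library (26.7% of all tested genes did so), and in 7 every Nvs library lay above (27% did so). Of the 8 genes called higher, 3 had uneven counts within a group and are described at the end, which leaves 5. The list and its members were proposed with results of these data known, so these counts describe the list and do not test it.

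Whether the summed level of the 43 genes was higher or lower in Nvs depended on the scaling. On the TMM scale it was 3444, 3206 and 3495 CPM in the Nvs libraries, against 3086, 3196 and 3105 CPM in the mod libraries. Every Nvs library lay above every mod library. The 4 unevenly counted genes gave 147 ± 125 CPM of this sum in Nvs and 16.2 ± 4.93 CPM in mod, and the other 39 summed to 3234 ± 92.0 CPM in Nvs and 3113 ± 54.0 CPM in mod. The 19 genes called lower summed to 1254 ± 25.3 CPM in Nvs and 1735 ± 36.0 CPM in mod. The 5 evenly counted genes called higher summed to 1193 ± 59.1 CPM in Nvs and 589 ± 15.5 CPM in mod (SD, n = 3 each). ISG15 and OASL alone made up 30.0% of the summed level in Nvs and 14.6% in mod. As a share of counts outside the mitochondrial genome, the 43 genes took 0.548% ± 0.0175 in Nvs and 0.586% ± 0.0142 in mod, and as a share of all counts 0.260% ± 0.0113 in Nvs and 0.407% ± 0.0129 in mod. By both shares every Nvs library lay below every mod library. In bulk RNA such values cannot separate fewer expressing cells from less RNA per cell.

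**Figure D1:**
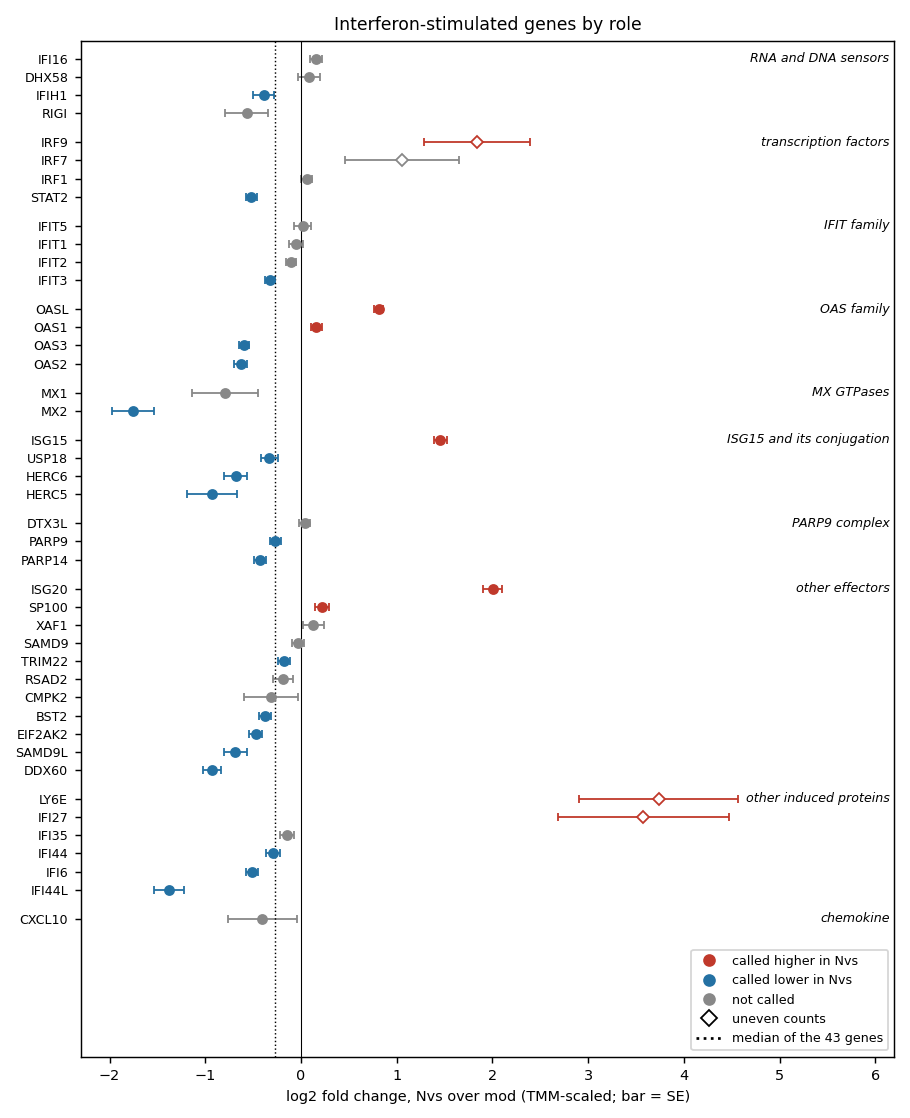
Log2 fold change of each of the 43 genes, Nvs over mod, in rows grouped by role; bars are standard errors, colours give the call at an adjusted p under 0.05, open diamonds mark uneven counts and the dotted line is the median of -0.27. Blue points (19 called lower) lie in most role groups, and ISG15, OASL and ISG20 stand to the right with narrow bars.

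Per kilobase of annotated exon, the order of the most abundant genes differed between the groups. These levels divide the mean CPM by the exon bases of the basic annotation of GENCODE release 29. ISG15 had the highest at 631 CPM per kilobase in Nvs, followed by IFI6 at 237 and OASL at 129. In mod IFI6 came first at 339 CPM per kilobase, then ISG15 at 230, BST2 at 123 and IFIT3 at 102. The lowest in Nvs was MX1 at 0.254 CPM per kilobase, and the lowest in mod was IRF9 at 0.138.

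ISG15 rose, while HERC5, HERC6 and USP18 fell. ISG15 is a ubiquitin-like modifier that is joined to other proteins and is also secreted. Its gene (chromosome 1, 1013497 to 1014540) had 556, 573 and 652 CPM in Nvs, against 234, 206 and 210 CPM in mod. The groups lay far apart, and the log2 fold change was 1.45 ± 0.07 SE (adjusted p = 3.48e-09). HERC5 encodes the main ligase that attaches ISG15 in human cells. It had 1.79, 1.36 and 1.35 CPM in Nvs, against 2.93, 2.66 and 2.98 CPM in mod (-0.93 ± 0.26, adjusted p = 0.0105). HERC6, the neighbouring gene and its closest relative, had 10.0, 8.78 and 11.4 CPM in Nvs, against 16.3, 16.7 and 15.4 CPM in mod (-0.68 ± 0.12, adjusted p = 0.000464). USP18, which removes ISG15 from proteins and dampens receptor signalling, had 19.9, 22.5 and 21.7 CPM in Nvs, against 27.1, 26.2 and 27.2 CPM in mod (-0.33 ± 0.09, adjusted p = 0.00799). In these 3 genes no Nvs library reached the lowest mod library. UBE2L6, the conjugating enzyme that passes ISG15 to its ligases and a gene of the further list below, was not called, with 112 ± 8.16 CPM in Nvs and 103 ± 0.265 CPM in mod (0.12 on the log2 scale, adjusted p = 0.113). It is named after its values were seen. By library totals ISG15 was still higher in Nvs, at 0.69.

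The oligoadenylate synthetases split in direction. OAS1, OAS2 and OAS3 make the second messenger that activates the ribonuclease RNase L, and OASL is a related protein without that activity that promotes RIG-I signalling. OASL (chromosome 12, 121017761 to 121039246) had 428, 406 and 428 CPM in Nvs, against 242, 243 and 234 CPM in mod. Its log2 fold change of 0.81 ± 0.05 (adjusted p = 2.68e-08) shrank to 0.05 by library totals, with an adjusted p of 0.353. OAS1, OAS3 and OAS2 lie side by side elsewhere on chromosome 12, between 112906962 and 113011723. OAS3 had 168, 176 and 172 CPM in Nvs, against 261, 252 and 266 CPM in mod (-0.60 ± 0.05, adjusted p = 5.24e-07). OAS2 fell by a like amount, with 63.9, 56.2 and 65.5 CPM in Nvs, against 92.8, 97.2 and 97.6 CPM in mod (-0.63 ± 0.07, adjusted p = 4.29e-06). Their neighbour OAS1 had 84.7, 78.8 and 85.5 CPM in Nvs, against 72.5, 76.0 and 74.2 CPM in mod. Its rise of 0.16 ± 0.06 (adjusted p = 0.0351) turned to -0.60 by library totals and lost the call without any 1 library other than Nvs replicate 2, with adjusted p-values from 0.0157 to 0.139 over the 6 omissions; it was also not called with no low-count filter (adjusted p = 0.108).

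MX2 had the lowest fold change of the list, and both MX genes had low levels. MX1 and MX2 encode dynamin-like GTPases that trap incoming viruses, and they adjoin each other on chromosome 21. MX2 (41362027 to 41409393) had 1.76, 3.35 and 2.34 CPM in Nvs, against 8.58, 7.81 and 8.73 CPM in mod. Its log2 fold change was -1.76 ± 0.22 (adjusted p = 2.66e-05), the most negative of the 43. MX1 had 1.17, 1.01 and 0.898 CPM in Nvs, against 2.07, 2.05 and 1.23 CPM in mod, and was not called (-0.80 ± 0.34, adjusted p = 0.0760). No MX1 value in Nvs reached the lowest one in mod, but that lowest value, 1.23 CPM in mod replicate 3, was close to the highest in Nvs.

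Of the IFIT cluster on chromosome 10, only IFIT3 was called. IFIT proteins bind viral RNA that lacks the methylated cap of host messenger RNA, and IFIT3 stabilises IFIT1. IFIT3 had 223, 207 and 213 CPM in Nvs, against 273, 276 and 258 CPM in mod (-0.33 ± 0.05, adjusted p = 0.000198). IFIT1 had 71.2, 77.9 and 70.2 CPM in Nvs, against 67.4, 82.3 and 77.7 CPM in mod. The groups overlapped for IFIT1, at -0.05 ± 0.08 (adjusted p = 0.609). IFIT2 was at -0.10 ± 0.05 with 93.6 ± 2.18 CPM in Nvs and 101 ± 1.32 CPM in mod. IFIT5 was at 0.02 ± 0.09 with 21.3 ± 0.114 CPM in Nvs and 21.0 ± 0.288 CPM in mod (SD, n = 3 each).

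**Figure D2:**
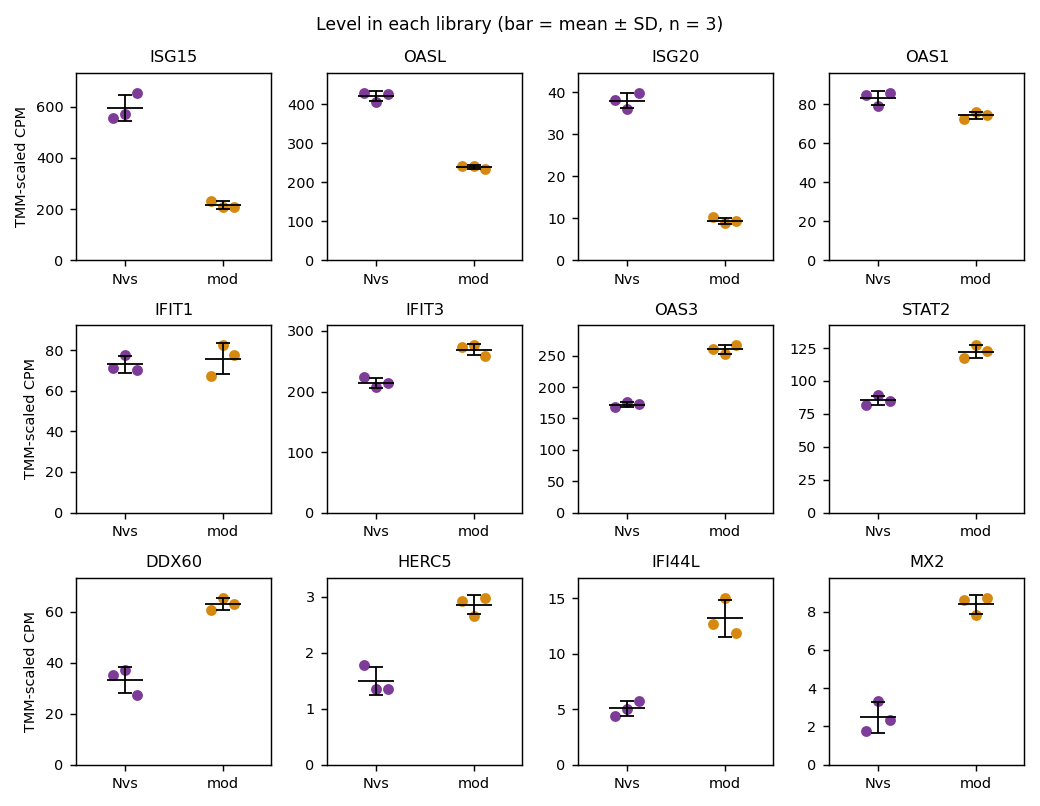
TMM-scaled CPM of 12 genes in each library, Nvs left of mod, with axes from 0; points are libraries and bars are the mean ± SD of 3 libraries. ISG15, OASL and ISG20 are higher in all Nvs libraries, IFIT1 overlaps, and MX2 and IFI44L are lowest relative to mod.

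Among the sensors of nucleic acids, IFIH1 fell and the others were not called. IFIH1 encodes MDA5, a receptor for long double-stranded RNA. It had 14.8, 17.9 and 16.9 CPM in Nvs, against 20.0, 23.1 and 22.0 CPM in mod (-0.39 ± 0.11, adjusted p = 0.00952). RIGI, a receptor for short RNA ends, averaged 3.64 ± 0.997 CPM in Nvs and 5.39 ± 0.434 CPM in mod. It was just outside the threshold at -0.57 ± 0.22 (adjusted p = 0.0546), and DESeq2 called it with 0.0368. With edgeR it was also called with no low-count filter (0.0330), a stricter filter (0.0492) and TMM without mitochondrial genes (0.0491). Over the omissions its adjusted p-values ran from 0.0345, without Nvs replicate 1, to 0.158. DHX58, which encodes the regulator LGP2, was at 0.09 ± 0.11, or -0.67 by library totals. IFI16, a nuclear DNA sensor, was at 0.16 ± 0.06 with 145 ± 7.58 CPM in Nvs and 130 ± 9.63 CPM in mod, or -0.60 by library totals. It was not called (adjusted p = 0.0614), but DESeq2 called it higher (adjusted p = 0.0393), as did edgeR without Nvs replicate 1 or mod replicate 2, with adjusted p-values from 0.0395 to 0.297 over the omissions.

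Of the transcription factors with even counts, STAT2 fell and IRF1 was not called. STAT2 (chromosome 12, 56341597 to 56360107), a subunit of ISGF3, had 81.8, 89.0 and 85.1 CPM in Nvs, against 118, 127 and 122 CPM in mod. All Nvs libraries were below all mod libraries (-0.52 ± 0.06, adjusted p = 6.13e-06). IRF1, which also responds to interferon gamma, averaged 123 ± 7.60 CPM in Nvs and 118 ± 4.73 CPM in mod. Its fold change of 0.06 ± 0.06 on the log2 scale became -0.70 by library totals.

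PARP9 and PARP14 fell, and DTX3L was not called. PARP9 and the ubiquitin ligase DTX3L form a complex that modifies proteins at sites of DNA damage and in interferon signalling, and PARP14 is a mono-ADP-ribosyltransferase. PARP14 had 96.4, 92.5 and 89.9 CPM in Nvs, against 116, 130 and 130 CPM in mod (-0.43 ± 0.06, adjusted p = 6.54e-05). PARP9 had 63.0, 65.6 and 65.4 CPM in Nvs, against 73.6, 80.4 and 79.4 CPM in mod (-0.27 ± 0.06, adjusted p = 0.00223). DTX3L, whose start the match printed above for PARP9 spans, averaged 85.0 ± 2.34 CPM in Nvs and 82.8 ± 2.28 CPM in mod. Its value of 0.04 ± 0.05 turned to -0.72 by library totals. The exons of the pair overlap on opposite strands over 217 bases, and the strand setting of the counting is not given.

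ISG20 had the largest fold change among evenly counted genes. It encodes an exonuclease that degrades single-stranded RNA. The gene (chromosome 15, 88635632 to 88656483) had 38.2, 36.0 and 39.7 CPM in Nvs, against 10.2, 8.84 and 9.32 CPM in mod. The 4.01-fold difference corresponded to 2.00 ± 0.10 on the log2 scale (adjusted p = 3.85e-09) and stood at 1.24 by library totals. SP100, a component of PML nuclear bodies, had 62.1, 54.2 and 54.5 CPM in Nvs, against 47.4, 51.7 and 47.6 CPM in mod. Its rise of 0.22 ± 0.07 (adjusted p = 0.0242) turned to -0.54 by library totals and was not called without Nvs replicate 1, mod replicate 1 or mod replicate 3, with adjusted p-values from 0.0192 to 0.124 over the omissions.

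The other antiviral effectors fell or were not called. DDX60, a helicase linked to RNA sensing, had 35.3, 37.0 and 27.4 CPM in Nvs, against 60.8, 65.5 and 63.2 CPM in mod (-0.93 ± 0.10, adjusted p = 4.14e-06). EIF2AK2, the kinase PKR, which halts translation on binding double-stranded RNA, had 42.0, 41.8 and 37.6 CPM in Nvs, against 55.5, 58.0 and 55.2 CPM in mod (-0.47 ± 0.07, adjusted p = 7.47e-05). BST2, or tetherin, which holds budding virions at the cell surface, had 92.1, 92.4 and 105 CPM in Nvs, against 128, 126 and 121 CPM in mod (-0.37 ± 0.06, adjusted p = 0.000243). In all 3 the groups were separate. TRIM22, a ubiquitin ligase, had 73.4, 76.2 and 83.7 CPM in Nvs, against 86.2, 91.1 and 86.6 CPM in mod. Its fall of -0.18 ± 0.06 (adjusted p = 0.0323) was small, was not called with the replicate block (adjusted p = 0.0618), and was lost without Nvs replicate 1 or 2 or mod replicate 2 or 3, with adjusted p-values from 0.00723 to 0.116 over the omissions.

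The neighbours SAMD9 and SAMD9L on chromosome 7, which limit protein synthesis in infected cells, stood apart from each other in value. SAMD9L had 14.8, 12.3 and 13.6 CPM in Nvs, against 19.4, 21.9 and 24.2 CPM in mod (-0.69 ± 0.12, adjusted p = 0.000323). SAMD9 averaged 113 ± 6.73 CPM in Nvs and 115 ± 7.76 CPM in mod, at -0.03 ± 0.06. The difference between the neighbours was not tested. RSAD2, or viperin, and the adjacent kinase gene CMPK2 were not called, at -0.19 ± 0.10 and -0.31 ± 0.28. Without Nvs replicate 1 RSAD2 was called lower, at -0.31, with adjusted p-values from 0.0245 to 0.442 over the omissions. XAF1, a pro-apoptotic gene, was at 0.13 ± 0.11, or -0.63 by library totals. CXCL10, a chemokine that draws T cells, was barely detected. It had 1.06, 0.758 and 1.17 CPM in Nvs, against 1.11, 1.26 and 1.59 CPM in mod (-0.40 ± 0.36, adjusted p = 0.404).

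IFI44L fell more than its neighbour IFI44 in value. Both lie on chromosome 1, and IFI44L is a widely used marker of interferon exposure in blood. IFI44L had 4.40, 5.05 and 5.78 CPM in Nvs, against 12.7, 15.1 and 11.8 CPM in mod (-1.38 ± 0.15, adjusted p = 9.00e-06). IFI44 had 37.9, 40.2 and 40.6 CPM in Nvs, against 44.5, 51.2 and 49.9 CPM in mod (-0.30 ± 0.07, adjusted p = 0.00481). IFI6, a small protein of the endoplasmic reticulum and mitochondria, had 198, 192 and 225 CPM in Nvs, against 286, 306 and 288 CPM in mod (-0.52 ± 0.06, adjusted p = 1.80e-05). These 3 genes were lower in every Nvs library. IFI35 was not called, at -0.15 ± 0.07 with 66.8 ± 7.17 CPM in Nvs and 73.9 ± 3.12 CPM in mod. Without Nvs replicate 3 it was called lower, at -0.23, with adjusted p-values from 0.0153 to 0.426 over the omissions.

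IFI27, LY6E, IRF7 and IRF9 had uneven counts, and no direction is read from them. Unevenness was defined as a level more than 2 times the lowest of its group with a count of at least 10, a property shared by 21.4% of all tested genes. The counts given here are not scaled for library size. IFI27, a mitochondrial and nuclear-envelope protein gene, had counts of 178, 180 and 3646 in Nvs, against 271, 188 and 182 in mod. On the TMM scale IFI27 had 5.22, 5.68 and 109 CPM in Nvs, against 4.07, 2.88 and 3.10 CPM in mod. A single library thus carried most of its log2 fold change of 3.58 ± 0.89 (adjusted p = 0.00527), which was 0.70 without Nvs replicate 3 (adjusted p = 0.0245). LY6E, a membrane protein that alters virus entry, had counts of 8137, 208 and 1339 in Nvs, against 464, 522 and 379 in mod. Nvs replicate 2 had the lowest count of all 6 libraries. On the TMM scale it had 6.57 CPM, just above mod replicate 3 at 6.46 CPM. The fitted value for LY6E was 3.74 ± 0.83 (adjusted p = 0.00238), and 1.71 without Nvs replicate 1 (adjusted p = 0.0167).

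IRF7, the factor that amplifies interferon production, had counts of 786, 205 and 143 in Nvs, against 119, 696 and 226 in mod. It was uneven in both groups and not called (1.05 ± 0.60, adjusted p = 0.176). The value was -0.02 without Nvs replicate 1 and 2.00 without mod replicate 2, where it was called (adjusted p = 0.0206). With no low-count filter edgeR also called IRF7 higher (1.03, adjusted p = 2.46e-08), despite the uneven counts in both groups. IRF9, the DNA-binding subunit of ISGF3, had counts of only 43, 16 and 39 in Nvs, against 16, 22 and 14 in mod. On the TMM scale IRF9 had 1.26, 0.505 and 1.17 CPM in Nvs, against 0.240, 0.337 and 0.239 CPM in mod. Its value of 1.84 ± 0.55 (adjusted p = 0.0154) was not called without Nvs replicate 1, mod replicate 1 or mod replicate 3, with adjusted p-values from 0.00563 to 0.0661 over the omissions. In the basic annotation of GENCODE release 29 another protein-coding gene on the same strand covers 1838 of the 1965 exon bases of IRF9. How the counting treated such reads is not given. Without the 4 uneven genes, 5 of 39 genes (12.8%) were called higher and 19 (48.7%) lower, with a median of -0.31. Of all tested genes, with uneven ones kept, 22.8% were called higher and 20.5% lower.

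**Figure D3:**
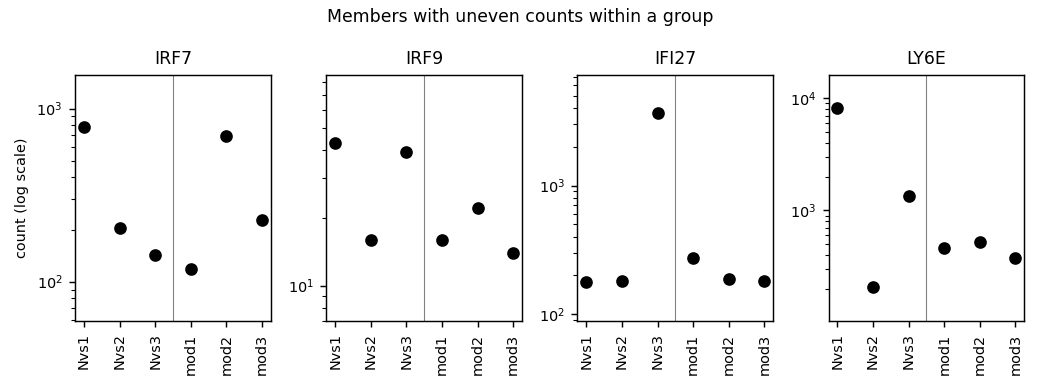
Deposited counts, on log axes, of the 4 genes with uneven counts in each library, Nvs left of mod. IFI27 is high in Nvs replicate 3 alone (3646), LY6E ranges from 208 to 8137 within Nvs, and IRF7 varies in both groups.

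Fold change followed gene length over the transcriptome, and the list was read against that trend. Across the 43 genes Spearman's rho between genomic span and log2 fold change was -0.47 (Pearson's r = -0.45 on log10 span), and it was -0.36 over the 39 evenly counted genes. Across 14430 tested genes with a RefSeq span rho was -0.35. These are correlations across genes of the same 6 libraries, and genes are not independent replicates. With the trend subtracted, the median of the 43 genes was -0.31. ISG15, the shortest at 1044 bases, went from 1.45 to 0.94, and ISG20, spanning 20852 bases, from 2.00 to 1.96. BST2 and IFI6, both short, went from -0.37 to -0.74 and from -0.52 to -0.75. DHX58, IRF1, IFIT5 and DTX3L, none of them called, changed sign.

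**Figure D4:**
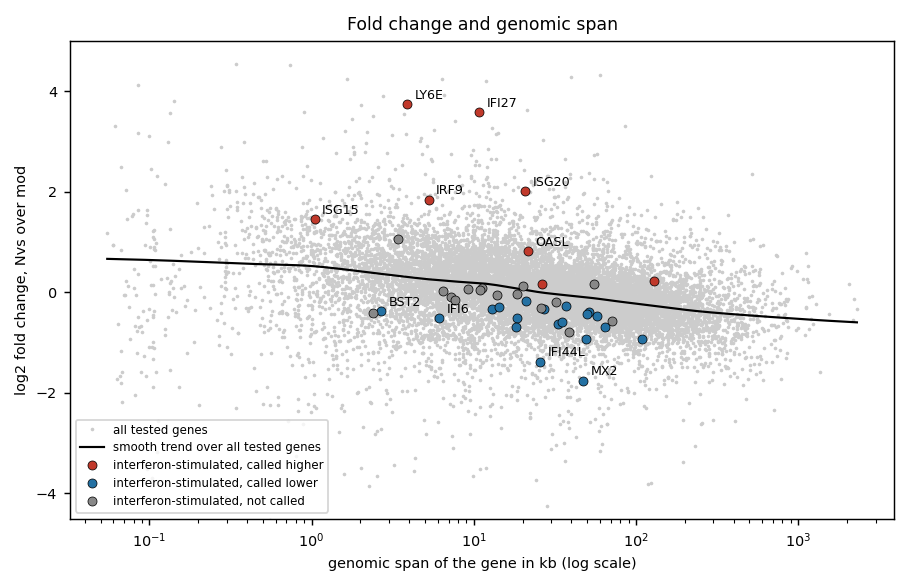
Log2 fold change, Nvs over mod, against genomic span in kb on a log axis for all tested genes (grey), their smooth trend (line) and the 43 interferon-stimulated genes coloured by call; 13 tested genes lie outside the plotted range. The 19 genes called lower lie below the line at their own span, and ISG15 and ISG20 lie above it.

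Interferon genes themselves were barely detected. Of 5 with values here, IFNE, an epithelial interferon, was the 1 that passed the filter, with counts of 16, 28 and 56 in Nvs, against 113, 145 and 118 in mod. It was not called (-0.97 ± 0.41, adjusted p = 0.0736, 0.0375 with the replicate block and 0.00691 without Nvs replicate 3), and its counts were uneven in Nvs. IFNK, the interferon kappa of keratinocytes, had counts of 23, 7 and 0 in Nvs, against 16, 8 and 8 in mod. IFNA1 had 3 reads in 1 mod library, IFNL1 had 4 and IFNL2 had 1 in an Nvs library, and each was at 0 elsewhere. IFNB1, IFNL3 and IFNG, also on the list, were not analysed here.

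Among 11 genes for receptors, kinases and STATs, 5 were called lower and 1 higher, with a median of -0.29, where 20.5% of all tested genes were lower and 22.8% higher. The counts of JAK2 and IFNAR2, which are among the 5, were uneven. The kinase gene JAK1 averaged 40.8 ± 3.30 CPM in Nvs and 58.1 ± 3.22 CPM in mod (-0.51 ± 0.07, adjusted p = 9.40e-05). JAK2 had 135, 95 and 64 counts in Nvs, against 404, 410 and 343 in mod. Its fold change was -1.03 ± 0.24 (adjusted p = 0.00326), and its counts were uneven in Nvs. Of 6 genes of negative feedback, 3 were higher and 1 lower, where 22.8% of all tested genes were higher and 20.5% lower. Their median of 0.16 was 0.05 with the length trend subtracted. The list was led by SOCS3, an inhibitor of JAK kinases (0.46 ± 0.10, adjusted p = 0.00277), PIAS1, an inhibitor of STAT signalling (-0.31 ± 0.09), and the phosphatase gene PTPN2 (0.33 ± 0.11). SOCS3 and PTPN2 turned to -0.30 and -0.43 by library totals. The PTPN2 call (adjusted p = 0.0246) was lost without Nvs replicate 1 and without any 1 mod replicate, with adjusted p-values from 0.00852 to 0.116 over the 6 omissions. With the length trend subtracted, JAK1 stood at -0.14, SOCS3 at 0.16 and PIAS1 at -0.03.

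Genes that act upstream of interferon moved both ways. Of 11 tested of 14, 2 were higher and 5 lower, where 22.8% and 20.5% of all tested genes were so called. Their median of -0.24 was -0.05 with the length trend subtracted. TICAM1, the adaptor TRIF of the receptor TLR3, averaged 65.3 ± 6.14 CPM in Nvs and 32.0 ± 2.51 CPM in mod (1.03 ± 0.08, adjusted p = 4.03e-07), and was 0.27 by library totals. IRF3, which switches on interferon genes, averaged 181 ± 2.89 CPM in Nvs and 124 ± 6.40 CPM in mod (0.55 ± 0.05, -0.21 by library totals). TRIM25, a ligase that activates RIG-I, fell by 0.67 ± 0.07. Of 10 tested genes of class I antigen presentation, 2 were higher and 3 lower, against the same shares. ERAP1, a peptidase that trims peptides, was at -0.50 ± 0.06, and B2M, the light chain of class I molecules, at -0.33 ± 0.06. The proteasome subunit gene PSMB10 was at 0.61 ± 0.09, or -0.15 by library totals. With the length trend subtracted, ERAP1 stood at -0.17, PSMB10 at 0.23, B2M at -0.55 and IRF3 at 0.31.

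Of 26 further interferon-induced genes, all tested, 6 were higher, 7 lower and 13 not called, with a median of -0.09. These counts were near the 22.8% higher and 20.5% lower of all tested genes. ZC3HAV1, or ZAP, which binds viral RNA rich in CpG, averaged 105 ± 1.46 CPM in Nvs and 189 ± 2.75 CPM in mod (-0.85 ± 0.05, adjusted p = 1.71e-08). APOL6, a pro-apoptotic apolipoprotein L gene, averaged 65.8 ± 1.89 CPM in Nvs and 104 ± 1.29 CPM in mod (-0.66 ± 0.05, adjusted p = 4.23e-07). IFITM1, which blocks virus fusion at the membrane, averaged 165 ± 8.34 CPM in Nvs and 116 ± 3.06 CPM in mod (0.51 ± 0.05, adjusted p = 5.64e-06), and was -0.25 by library totals and 0.02 with the length trend subtracted.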

How the data were processed

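The 6 poly(A)-selected, strand-specific RNA libraries, read as paired ends, were compared, per the labels' protocols. The authors deposited raw counts per gene symbol and FPKM values (normalised for length and library total) for the same symbols, per the file headers. The submitters' processing notes name the build hg38. The aligner, counter, annotation and strand setting were not given in the sources used here. Replicates are called biosamples in the labels, which do not say that they were separate cultures, so the p-values reflect variation among the libraries that may be technical.

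Counts were filtered with filterByExpr (minimum count 10, minimum total 15), scaled by TMM and tested in R 4.3.3 with edgeR 4.0.16 (quasi-likelihood F test, group as the sole term, Benjamini-Hochberg adjustment over 14617 genes, called at an adjusted p under 0.05). Fold changes are Nvs over mod on the log2 scale, and SEs were derived from the fold change and its F statistic. DESeq2 1.42.0 and limma 3.58.1 (log2 of FPKM plus 0.1 or 1) served as alternatives, with library totals, other filters, a replicate block, omission of each library and a lowess trend on RefSeq genomic span. The procedure was tested on simulated counts. The members and lists were chosen with earlier results of these data known. All 43 members are named, with library values for those called or preset. The 3 genes with the smallest adjusted p are named of each further list, except 1 gene that is not reported here. Depth of 41120058 to 51369628 counts per library limits precision mainly for genes under about 2 CPM.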

Additional observations from a re-analysis of the deposited data

How the results depend on the processing

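Every setting below left more of the 43 genes lower than higher in Nvs. By library totals 4 were called higher and 36 lower with a median log2 fold change of -1.03, while 589 of all genes were called higher and 9938 lower . limma on log2(FPKM + 0.1) gave 2 and 36 with -0.92 (620 and 10097 of all genes), and on log2(FPKM + 1) it gave 2 and 36 with -0.74 (619 and 10100). The median of the 43 genes lay 0.22 to 0.34 below that of all genes under every fitted setting. By library totals the sign turned for DHX58 (-0.67), IFI16 (-0.60), IRF1 (-0.70), IFIT5 (-0.74), OAS1 (-0.60), DTX3L (-0.72), SP100 (-0.54), XAF1 (-0.63), SOCS3 (-0.30), PTPN2 (-0.43), IRF3 (-0.21), PSMB10 (-0.15) and IFITM1 (-0.25). On FPKM plus 0.1 the values in the same order were -0.66, -0.60, -0.69, -0.72, -0.59, -0.71, -0.53, -0.60, -0.30, -0.42, -0.21, -0.14 and -0.25. On FPKM plus 1 they were -0.54, -0.58, -0.63, -0.61, -0.51, -0.67, -0.42, -0.42, -0.26, -0.31, -0.20, -0.14 and -0.24. These settings carry the shift of all genes by library total.

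Leaving out each library in turn gave 5 to 9 genes higher and 18 to 20 lower, with medians from -0.31 to -0.23, where 18.3% to 21.7% of all tested genes were higher and 16.1% to 20.1% lower. The lowest count of 5 came without mod replicate 1 and without mod replicate 3, and the evenly counted genes alone, an alternative chosen after seeing the data, also gave 5. The sign turned for genes near 0: over the omissions IRF7 ran from -0.0166 without Nvs replicate 1 to 2.00, SAMD9 from -0.0895 to 0.0044 (above 0 without Nvs replicate 1 and without mod replicate 2), IFIT1 from -0.138 to 0.00064 (above 0 without mod replicate 2) and IFIT5 from -0.0049 without mod replicate 3 to 0.0211, and IFIT5 was -0.0060 with no low-count filter. With the length trend removed it turned for DHX58 (-0.089), IRF1 (-0.14), IFIT5 (-0.21) and DTX3L (-0.14), and 12 of the 16 other genes tried moved by more than their replicate spread. DESeq2, TMM without mitochondrial genes and both other filters gave 7 or 8 higher and 20 or 21 lower, of 42 tested genes with the stricter filter. Of all tested genes these settings called 14.8% to 26.8% higher and 15.4% to 24.6% lower. With no low-count filter the 8 higher genes included IRF7, uneven in both groups, and not OAS1. TMM without mitochondrial genes gave 8 higher and 20 lower, with a median log2 fold change of -0.28. It called 22.2% of all tested genes higher and 21.2% lower.

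Replicate numbers are shared by the groups, but same-numbered libraries did not deviate together (correlations of -0.02, -0.01 and -0.02). With the replicate block 7 genes were higher and 18 lower (21.3% and 19.4% of all tested genes), and OAS1 and TRIM22 lost their calls. Genes that averaged about 2 CPM or less in Nvs (MX1, CXCL10, CMPK2, HERC5, IRF9) have standard errors of 0.26 to 0.55, which limits what can be called there.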

Other observations

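Some genes of class I antigen presentation on chromosome 6 had few counts, and they are named here after their values were seen. PSMB8, PSMB9, TAP1, TAP2 and HLA-F did not pass the filter on low counts, whereas HLA-B averaged 195 ± 28.4 CPM in Nvs and 226 ± 81.7 CPM in mod. HLA-B was not called by edgeR (adjusted p = 0.376). Its groups overlapped, with 318, 164 and 195 CPM in the mod libraries. B2M averaged 347 ± 12.4 CPM in Nvs and 434 ± 36.3 CPM in mod (SD, n = 3 each). How the counting treated reads that match several places is not given in the sources used here, and its part in these values was not tested.

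The length that relates a deposited count to its FPKM value exceeded the exon length in GENCODE's basic annotation for many of the 43 genes. It was not compared with the full annotation. The ratio of the 2 lengths had a median of 1.58 and ran from 0.925 for ISG15 to 5.03 for IFI27, and it was above 1.5 in 22 genes. Levels per kilobase are therefore given from counts and exon bases.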
